A study of Mus musculus with 4 samples.

Results

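In 279 of 4878 mouse genes (5.72%), ribosome footprints on the 5' UTR, the leader that precedes the main start codon, outnumbered those on the coding region in both control libraries. A gene was taken when, in each control library, its leader value was 10 or more normalized reads and exceeded its coding value. The control libraries therefore chose the genes, and every control value below describes that choice. The footprints came from mouse embryonic fibroblasts, primary connective tissue cells grown from embryos and used at passages 5 to 8. They were transfected, with the reagent Lipofectamine RNAiMAX, either with siRNA that serves as a negative control or with siRNA that targets the initiation factor eIF1A, and 2 libraries were made of each. No strain, genotype or embryonic age was stated. The design asks how footprints are placed on mRNAs when eIF1A is lowered. The eIF1A genes Eif1ax and Eif1a were not analysed here, so the knockdown itself was not checked, and neither was Rps10, one of the ribosomal proteins in the series title. Rps3, the other one, had a leader value of 1 read in every library and was not among the 279.

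In most mRNAs the small ribosomal subunit binds near the cap and scans the leader until it recognises a start codon. eIF1A sits on that subunit during scanning and takes part in the choice of the start codon. Leaders can hold upstream open reading frames, short frames with their own start and stop codons, and ribosomes that translate them leave footprints there. In a few known mRNAs, Atf4 among them, translation of such frames sets how many ribosomes reach the main coding region.

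Short frames near the transcript start show what such a leader element looks like. RefSeq transcript starts (build GRCm38.p6) were matched to 226 of the 279 genes, and the first 50 bases after the start were searched for ATG followed by an in-frame TAA, TAG or TGA, on the transcribed strand. A complete frame was found in 18 of the 226 (7.96%), against 5.22% of 4003 genes of the table and 11.7% of all 32851 RefSeq windows of that length. The window is genomic, so it can run into an intron, and the start is the first one listed for the gene. Of these frames, 6 are given here with the start and stop codons in capitals and at most 4 bases before the ATG. They were picked after their values were seen, because they cover a gene with falling leader reads (Prrx1), genes with rising ones (Babam1, Cdk2ap1; both calls were lost when either control was left out) and genes in which leader and coding reads moved unequally (Eif5a, Wbp5, Ftl1).
Eif5a: gATGgttgtaatccgaccacacTAG
Prrx1: tgtgATGgagaaagggggtctgTAA
Wbp5: tctcATGTGA
Ftl1: caacATGctaTAA
Babam1: gaagATGgcggcttccTAG
Cdk2ap1: cccgATGtatgggTGA
The Eif5a frame lies at chr11:69921934-69921958 on the minus strand and spans 7 codons before its stop. The Prrx1 frame lies at chr1:163313605-163313629 on the minus strand with 6 codons, and the Ftl1 frame at chr7:45459865-45459877 on the minus strand with 2. In Wbp5, named Tceal9 in RefSeq, the stop directly follows the ATG at chrX:136245085-136245094 on the plus strand. The Babam1 frame lies at chr8:71396885-71396903 on the plus strand with 4 codons, and the Cdk2ap1 frame at chr5:124354591-124354606 on the minus strand with 3. An ATG of any kind occurred in 24.8% of the 226 windows, against 28.8% in the table and 44.3% in all RefSeq windows. A C followed by 4 pyrimidines, the start of the class of mRNAs with a terminal oligopyrimidine tract, was present in 2.65%, 2.17% and 2.51% in the same order. The motif AAGATGGCG, the core of a translation initiator of short leaders, was present in 1.33%, 2.42% and 0.636%. Median GC content was 66% in the 226 and in the table. A match describes the letters alone, and the deposited reads carry no position within the leader.

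All 279 genes matched a RefSeq gene, 267 directly and 12 by an older name. RefSeq lists 278 of them as protein coding and 1, Zfas1 (1500012F01Rik in the table), as a long non-coding RNA, although the table gives it a leader and a coding value. Small nucleolar RNAs lie within the span of 5 genes, or 1.79%, against 2.53% of the 4870 table genes with coordinates. These are Zfas1 and Rabggtb with 3 each, Kansl2 with 2, and Eif5 and BC005537 with 1 each.

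Values are the authors' normalized reads, and they were not divided by the length of either region. The lowest value in every column is 1 read, which may stand for 0 or 1. The libraries differed in depth and in how much of it lay on leaders. Listed reads numbered 617663 and 547916 in the controls and 458191 and 280649 in the eIF1A siRNA libraries. Leaders took 11.6% (95% Wilson interval 11.5 to 11.7) and 13.7% (13.6 to 13.8) of them in the controls and 19.95% (19.8 to 20.1) and 32.4% (32.2 to 32.6) after eIF1A siRNA. Such intervals cover counting error only. The second eIF1A siRNA library was thus the shallowest and the most leader-rich, and the medians and counts given for the set are also given without it where it moves them. The labels do not say whether the replicates were separate cultures, and p-values therefore measure a spread between libraries that may be technical. Without RNA-seq of these cells, less mRNA and less translation per mRNA cannot be told apart, nor can fewer cells of a type and less RNA per cell. Of 11 fibroblast markers looked for, S100a4, Vim and Fn1 were in the table, with summed coding values of 2871 to 5504. Coding values of the pericyte genes Cspg4 and Notch3 summed to 337 and 548 in the controls and 106 and 123 after eIF1A siRNA, and those of the neuronal gene Map2 were 65.9 and 55.3 against 15.3 and 6.38. The leukocyte marker Cd74 was between 1.60 and 17.3, and the epithelial marker Dsp between 71.8 and 146. No marker was among the 279 genes, and their part in the results was not tested.

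The 279 leaders held a smaller share of all leader footprints after eIF1A siRNA. They took 23.1% (22.8 to 23.5) and 22.8% (22.5 to 23.1) of leader reads in the controls and 14.9% (14.6 to 15.1) and 13.8% (13.6 to 14.0) after eIF1A siRNA. The controls chose these leaders for high values, which raises their control shares. No share was measured from a control outside the choice, so nothing is read from the fall. In each control the 10 largest held 29.8% of the reads on the 279 leaders. The median leader of the 279 genes held 31 and 32 reads in the controls and 27 in each eIF1A siRNA library. Their median coding region held 18, 11, 12 and 6 reads in the same order, so most ratios rest on few coding reads. The coding region stood at 1 read in 6 and 10 genes in the controls and in 11 and 41 genes after eIF1A siRNA. A ratio with 1 coding read in the denominator may be too low. Ratios are least precise in the second eIF1A siRNA library, which had the fewest reads.

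**Figure D1:**
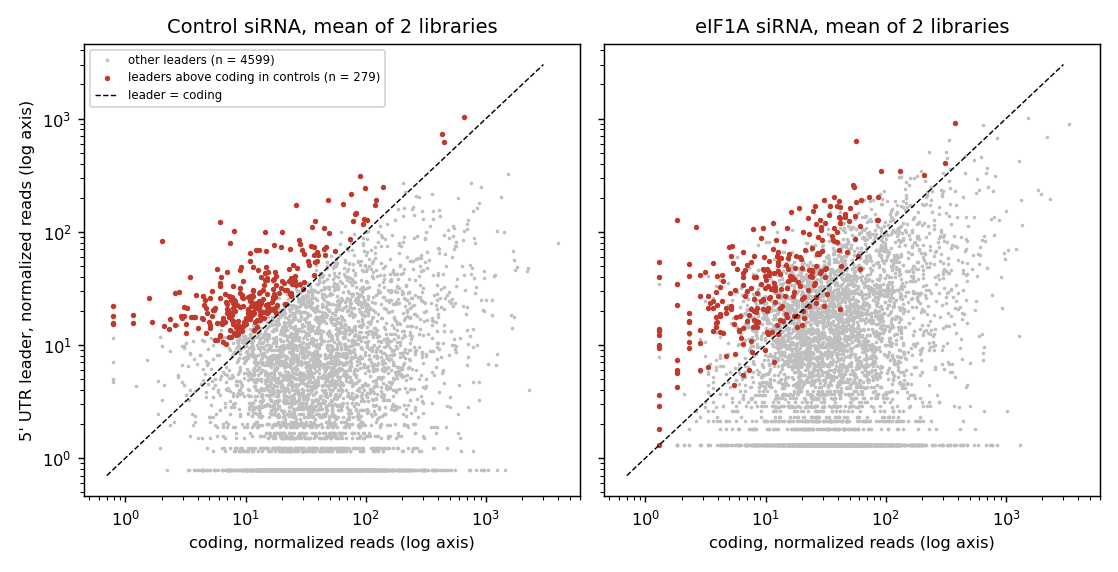
Normalized reads of the 5' UTR leader (vertical) against the coding region (horizontal), both on log axes, averaged over the 2 control siRNA libraries (left) and the 2 eIF1A siRNA libraries (right); red points are the 279 chosen genes, grey points the other 4599, and the dashed line marks equal values. By choice all red points lie above the line on the left; on the right some have crossed it, and many grey points have moved up to it.

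Most of the leaders stayed above their coding regions after eIF1A siRNA. Leader reads exceeded coding reads in 223 of the 279 genes (79.9%) in the first eIF1A siRNA library and in 267 (95.7%) in the second, and in 218 (78.1%) in both. In 7 genes the leader exceeded the coding region in neither library. Among the 4599 other genes, 393 (8.55%) had more leader than coding reads in both eIF1A siRNA libraries. The closer comparison is with the 978 other leaders that also held 10 or more in both controls, of which 216 (22.1%) exceeded their coding regions in both. The stronger the excess in the controls, the more often it was seen again. That order is partly built in, since a ratio close to 1 needs only a small shift to lose the excess. The bands also use the control values that chose the genes, so nothing is read from the order. Of 117 genes whose lower control ratio was between 1 and 1.5, 74 (63.2%) kept the excess in both eIF1A siRNA libraries. The count was 42 of 50 between 1.5 and 2, 81 of 90 between 2 and 5, and 21 of 22 (95.5%) at 5 or more.

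The rule also met new leaders after eIF1A siRNA. Applied to both eIF1A siRNA libraries, it took 581 leaders, of which 204 were among the 279. Those 204 are 73.1% of the control set and 35.1% of the larger set. Over the 581, the median read ratio was 0.914 and 1.35 in the controls and 1.79 and 3.31 in the libraries that chose them. Their median log2 change of the ratio was 1.14, against 0.33 for the 279 that the controls chose. Each set was chosen for a high ratio on its own side of the comparison, which raises the first value and lowers the second. Nothing is therefore read from the gap between them.

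The ratio of leader to coding reads differed less between the groups in these genes than in others. In the 279 genes its median was 1.76 and 2.73 in the controls and 2.17 and 4.33 after eIF1A siRNA. In the 978 comparison leaders it was 0.327 and 0.423, then 0.532 and 1.13, and in all 4878 genes 0.0833 and 0.111, then 0.178 and 0.376. On the log2(normalized reads + 1) scale, the median change of the ratio (mean of the eIF1A siRNA libraries minus mean of the controls) was 0.33 in the 279, 1.17 in the comparison leaders and 0.99 in all genes. Measured on 1 library at a time, the median change in the 279 was -0.07 in the first eIF1A siRNA library and 0.86 in the second. In the comparison leaders it was 0.67 and 1.70, and in all genes 0.53 and 1.46. So without the second library the median ratio change of the 279 genes was just below 0, while those of the other sets stayed above it. These gaps between sets are descriptions, with no test. The medians of all genes also include leaders at 1 read, the lowest value, in every library, and those of the comparison leaders do not.

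**Figure D2:**
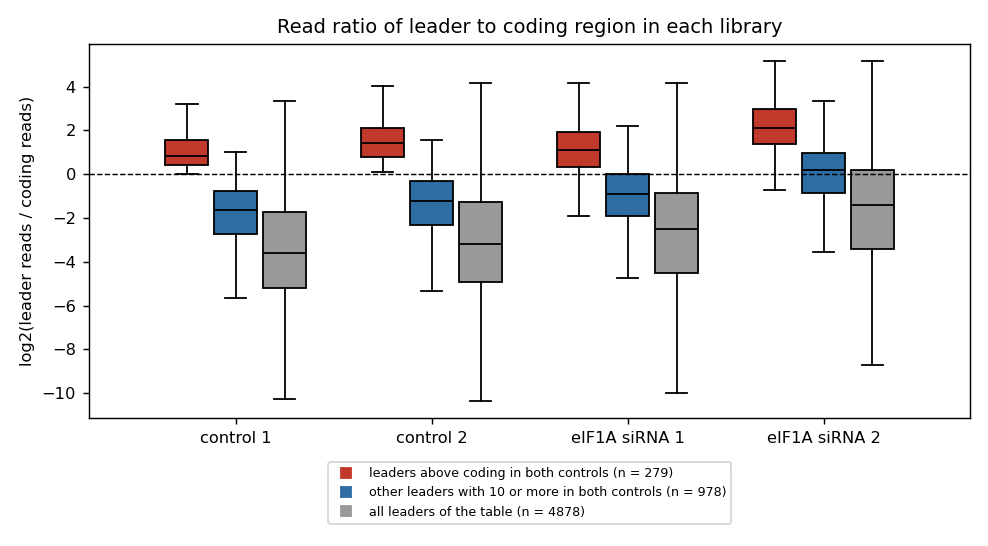
Log2 of leader reads over coding reads in each of the 4 libraries for the 279 chosen genes (red), the 978 other leaders with 10 or more in both controls (blue) and all 4878 genes (grey); boxes span the quartiles with the median as a line, whiskers reach the most distant gene within 1.5 box lengths, and genes beyond are not drawn. The medians of the blue and grey boxes increase from the controls to both eIF1A siRNA libraries, while the red median of the first eIF1A siRNA library (a ratio of 2.17) lies between those of the controls (1.76 and 2.73).

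The gap was present in both regions. The media log2 change of the leader was 0.29 in the 279 genes, 0.79 in the comparison leaders and 0.67 in all genes. For the coding region the medians were -0.02, -0.38 and -0.16. Each eIF1A siRNA library alone gave other sizes. Leader medians were 0.03 in the first and 0.64 in the second for the 279 genes, 0.44 and 1.15 for the comparison leaders and 0.25 and 0.98 for all genes. Coding medians were 0.18 and -0.20 for the 279 genes, so their sign differed, -0.23 and -0.56 for the comparison leaders and -0.01 and -0.32 for all genes. The order of the sets was the same in either library. With factors from the coding reads alone (trimmed mean of M-values), all genes stood at 0.81 for the leader and -0.00 for the coding region, and the 279 at 0.45 and 0.14. The leader change of the 279 thus lay below that of all genes under either scaling, and their coding change above it.

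Because the controls chose the set, the change was also measured from a control that had no part in the choice. The rule applied to the first control alone took 321 leaders, of which 290 (90.3%) also exceeded their coding regions in the second control. Measured from that second control, their media log2 change was 0.33 for the leader, 0.10 for the coding region and 0.23 for the ratio. From the choosing control the same 3 medians were 0.51, -0.02 and 0.49. The rule applied to the second control alone took 490 leaders, of which 295 (60.2%) held in the first control. Measured from the first control, their medians were 0.61 for the leader, -0.16 for the coding region and 0.86 for the ratio, against 0.24, 0.14 and 0.17 from the choosing control.

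The size of the change thus depended on the control it was measured from. Between the controls, the ratio of the 321 leaders was higher in the second by a median of 0.32 log2 units, and that of 1042 comparison leaders chosen alike by 0.36. For the 490 leaders the ratio in the first control was lower, with a median difference of -0.67, against -0.42 for their 1100 comparison leaders. In both directions the comparison leaders had the larger medians, with ratio changes of 1.03 and 1.46 from the uninvolved control. With the first eIF1A siRNA library alone, the ratio medians from the uninvolved control were -0.20 for the 321 leaders and 0.39 for the 490, against 0.51 and 0.99 for their comparison leaders. With the second library alone they were 0.74 and 1.32 against 1.57 and 1.95. The same order thus held in each eIF1A siRNA library and from each control.

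**Figure D3:**
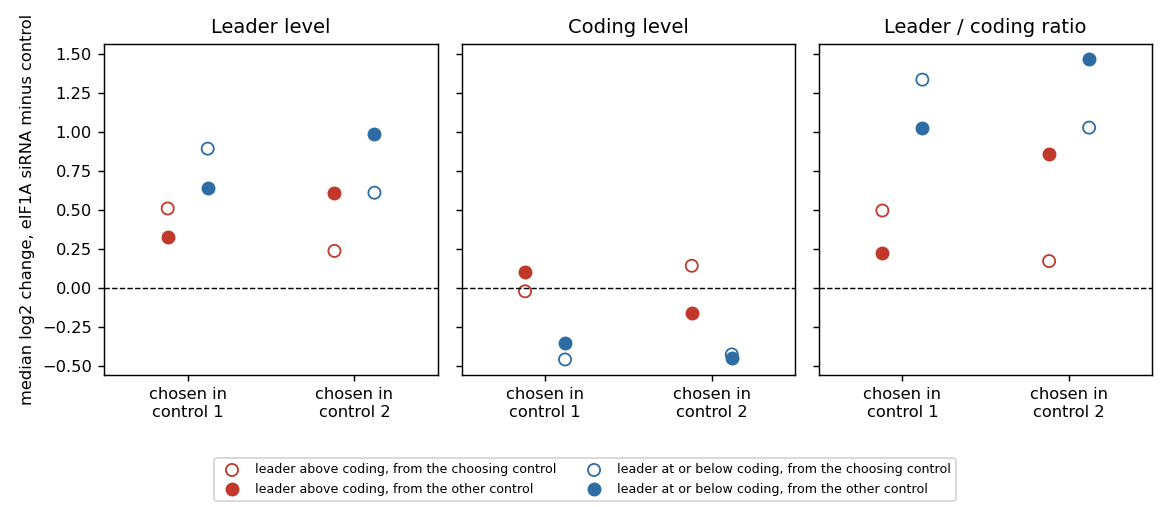
Media log2 change (eIF1A siRNA minus control) of leader, coding region and ratio for leaders chosen in 1 control only (red, 321 in control 1 and 490 in control 2) and for the other leaders of 10 or more in that control (blue, 1042 and 1100). Open circles measure the change from the control that made the choice, filled circles from the other one; filled red circles of the ratio stand at 0.23 and 0.86, and the blue ones at 1.03 and 1.46.

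The tests were also run without the choosing control. For leaders chosen in the first control, limma on the second control and both eIF1A siRNA libraries put 33 of 312 (10.6%) higher and 15 (4.81%) lower at an unadjusted p under 0.05, where 24.8% and 1.38% of all leaders tested were. For leaders chosen in the second control, 84 of 479 (17.5%) were higher and 8 (1.67%) lower, where 33.3% and 0.762% of all were. At an adjusted p under 0.05, 8 leaders were higher and 4 lower after the choice in the first control, beside 8.52% and 0.476% of all, and 33 and 4 after the choice in the second, beside 16.1% and 0.286%. Coding regions at an unadjusted p under 0.05 were higher in 26 (13.2%) and lower in 16 (8.12%) of 197 after the choice in the first control, beside 10.9% and 17.1% of all. After the choice in the second they were higher in 16 (4.65%) and lower in 22 (6.4%) of 344, beside 7.64% and 13.3%. Of the ratios, 0 were higher and 1 was lower of 197 in the first case, beside 6.24% and 0.0524% of all, and 11 were higher and 0 lower of 342 in the second, beside 9.44% and 0.0%. No ratio of either choice passed limma's adjusted threshold, at those unadjusted counts. Each of these fits holds 1 control, whose spread is taken from the eIF1A siRNA pair.

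Leader footprints of single genes moved both ways. Both eIF1A siRNA libraries lay above both controls for 115 of the 279 leaders and below both for 59, while 105 overlapped. Over all leaders of the table, 67.6% lay above and 6.42% below. A leader at 1 read in every library counts there as above, because 1 read was worth more in both eIF1A siRNA libraries. The closer comparison is with the 978 comparison leaders, of which 58.9% lay above and 11.04% below. By limma (linear model with a variance trend, Benjamini-Hochberg adjustment over 2101 leaders with a mean of at least 10), 57 of the 275 tested rose and 29 fell at an adjusted p under 0.05. The shares were 20.7% and 10.5%, beside 44.0% and 2.81% of all leaders tested. The whole table held 59 falls. The controls that chose these leaders are also the control side of the comparison, so nothing is read from the counts. Leaving out a control left few calls, with 4 rises and 4 falls without control 1 and 9 and 4 without control 2, while 102 leaders rose without the first eIF1A siRNA library. In this fit every leader was given the variance of the trend, so small p-values rest on a shared variance.

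Psph, Rhob, Zfas1 and Atf4 had the largest leader rises by limma. Psph, the enzyme of the last step of serine synthesis (chr5:129765558-129787443), had leader values of 15.8 and 11.2 in the controls and 119 and 131 after eIF1A siRNA, which is a rise of 3.13 ± 0.49 on the log2 scale (SE, limma adjusted p = 1.57e-08). Its coding values were 12.9 and 10.4 against 57.0 and 41.5 (log2 change 1.98, limma adjusted p = 0.0017). Psph leader and coding reads thus rose together, without overlap between groups. Rhob, a small GTPase (chr12:8497661-8500009), had leader values of 18.6 and 24.2 against 119 and 184, a rise of 2.74 ± 0.48 (SE, limma adjusted p = 3.68e-07). Its coding values were 15.8 and 14.7 against 31.5 and 17.6, with a change of 0.60 that did not pass (limma adjusted p = 0.318). Rhob was the one chosen gene whose ratio was called higher, from 1.18 and 1.65 to 3.77 and 10.5 (log2 change 2.14, limma adjusted p = 0.0417). That call was lost when either control or the second eIF1A siRNA library (log2 change 1.43) was left out, and with edgeR and DESeq2.

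Atf4, the transcription factor of the integrated stress response and the textbook case of control by upstream frames (chr15:80255184-80257545), had the largest coding rise. Its leader values were 116 and 126 in the controls and 504 and 768 after eIF1A siRNA, and its coding values 7.88 and 4.32 against 66.1 and 46.3. The log2 changes were 2.35 ± 0.41 (SE, limma adjusted p = 4.61e-07) for the leader and 3.03 ± 0.44 (limma adjusted p = 0.000232) for the coding region. Both Atf4 regions separated fully by group, and its ratio stayed high, at 14.7 and 29.2 in the controls and 7.63 and 16.6 after eIF1A siRNA. The ratio change of -0.68 did not pass (limma adjusted p = 0.494). With a control mean of 6.10, the Atf4 coding region met the minimum of 10 for testing only through the eIF1A siRNA libraries. The Atf4 coding call was lost without control 2 (log2 change 2.67), and that of Psph likewise (1.84).

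Further leader rises concerned genes of varied roles. Zfas1, a host of small nucleolar RNAs (chr2:167062934-167065862), went from 13.6 and 17.3 to 60.0 and 160, a change of 2.60 (limma adjusted p = 4.18e-06), with coding values of 1 read in each control. Its leader reads may include reads of the small nucleolar RNAs in its span, which was not tested. Akirin2, a nuclear adaptor, went from 19.3 and 27.7 to 105 and 132 (2.30), and Serp1, a protein of the stressed endoplasmic reticulum, from 31.5 and 42.4 to 147 and 190 (2.16). Chchd7, a mitochondrial protein, and Selenoh, a selenoprotein (2700094K13Rik in the table), rose by 2.17 and 2.14. Coding reads rose too in Akirin2 (1.65), Serp1 (1.39) and Selenoh (1.66), while those of Chchd7 and Zfas1 were too few to test. The coding calls of Akirin2, Serp1 and Selenoh were lost when either control was left out. Serp1 and Selenoh, with control means of 9.55 and 7.97, met the minimum of 10 only through the eIF1A siRNA libraries. Eif5, the partner of eIF1A that promotes hydrolysis of GTP at the start codon (chr12:111538101-111546753), had leader values of 91.7 and 104 against 303 and 389, and coding values of 60.2 and 38.9 against 90.5 and 92.6. Its leader rose by 1.81 ± 0.43 (SE, limma adjusted p = 0.000224) and its coding region by 0.91 (limma adjusted p = 0.0438). The Eif5 coding call was lost when either control was left out, with TMM factors and with DESeq2. Reads of the small nucleolar RNA in the Eif5 span may be among its leader reads, which was not tested. Among the named leader calls, those of Psph, Rhob, Atf4, Zfas1, Scd2, H1f0 and Fcgrt held in all 14 alternatives. The other 31 named leader calls were lost at least without 1 of the controls, with unchanged sign.

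**Figure D4:**
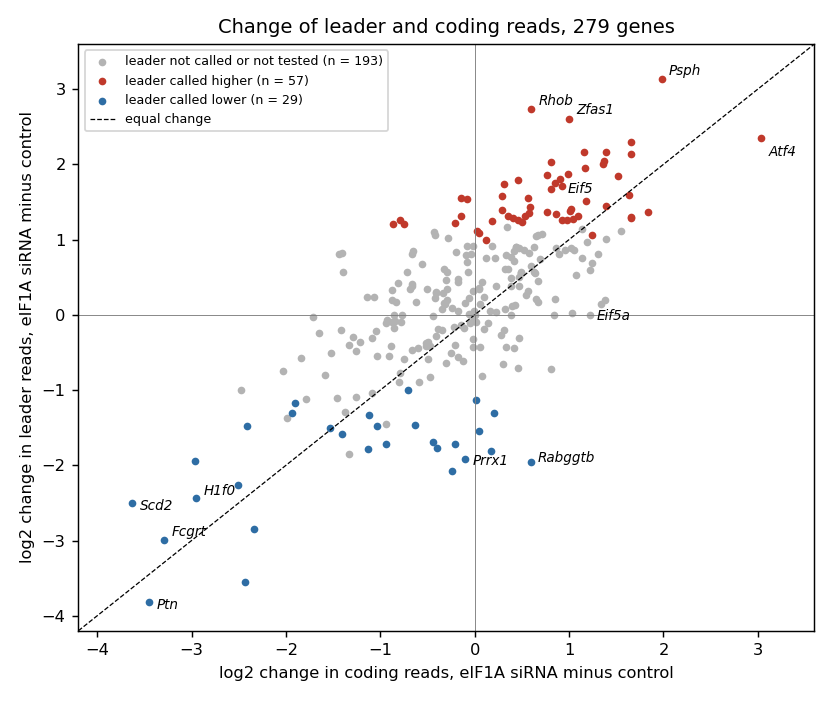
Log2 change of leader reads (vertical) against that of coding reads (horizontal), eIF1A siRNA minus control, for the 279 chosen genes; red marks the 57 leaders called higher by limma, blue the 29 called lower and grey the 193 not called or not tested, and the dashed line marks equal change. Psph and Atf4 lie far up and to the right and Scd2, H1f0, Fcgrt and Ptn far down and to the left, while Rhob lies above the line and Rabggtb, Prrx1 and Eif5a below it.

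Ptn, Atp1b2, Fcgrt and Nrep had the largest leader falls by limma. The leaders of Ptn, Atp1b2 and Nrep met the minimum of 10 only through the controls. Ptn, the growth factor pleiotrophin (chr6:36714924-36810179), had leader values of 35.8 and 41.5 in the controls and 2.03 and 1.60 after eIF1A siRNA, and coding values of 22.2 and 25.9 against 1.02 and 1.60. With 98 leader reads in the controls against 3, the control level was 20.6 times higher, with a 95% counting interval of 6.85 to 102. Its coding region held 61 reads against 2, or 1 in each eIF1A siRNA library. Ptn was therefore almost without footprints in either region after eIF1A siRNA. Atp1b2, a subunit of the sodium pump, had 67 leader reads against 2, again 1 in each library, where no fold is given since 1 read may stand for 0. Nrep had 61 against 4, or 9.62 times more in the controls (3.57 to 36.4). The ratios of Ptn and Nrep would be higher if the value of 1 read that each has in 1 eIF1A siRNA library stands for 0.

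Scd2, a stearoyl-CoA desaturase that makes monounsaturated fatty acids (chr19:44293676-44306864), had the highest leader value of the 279 genes in the controls, without regard to length. Its leader values were 974 and 1108 against 188 and 179, a fall of 2.50 ± 0.40 on the log2 scale (SE, limma adjusted p = 2.38e-08). Its coding values fell from 673 and 637 to 80.3 and 33.5, by 3.63 ± 0.35 on that scale (limma adjusted p = 1.05e-05). Scd2 thus lost reads in both regions, and its ratio went from 1.45 and 1.74 to 2.34 and 5.33 without a call (limma adjusted p = 0.275). Scd1, the related desaturase, had leader values of 107 and 147 against 72.2 and 97.4, whose change of -0.57 did not pass (limma adjusted p = 0.288). Its coding values of 102 and 101 fell to 39.7 and 19.2, with a log2 change of -1.84 (limma adjusted p = 0.00169), a call lost when either control was left out (-1.83 and -1.84). Scd1 was picked after its values were seen. The linker histone gene H1f0 had leader values of 676 and 794 against 113 and 160 and coding values of 433 and 429 against 65.1 and 46.3, with falls of 2.44 and 2.95. Fcgrt, the neonatal Fc receptor, showed falls of 2.99 and 3.29, and Thra, the thyroid hormone receptor alpha, falls of 2.27 and 2.51. The Thra leader and the coding regions of Fcgrt and Thra met the minimum of 10 only through the controls. Both coding regions stood at 4.07 in the first eIF1A siRNA library and at 1.60, or 1 read, in the second. The coding calls of Scd2 (without control 2), Fcgrt and Thra (when either control was left out) were lost when a control was left out, at log2 changes of -3.67 for Scd2, -2.89 and -3.69 for Fcgrt, and -2.53 and -2.49 for Thra.

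Some leaders were called lower while their coding regions were not called or, in Nck2, not tested. Prrx1, a homeobox factor of mesenchyme (chr1:163245119-163315145), had leader values of 153 and 199 in the controls and 35.6 and 57.5 after eIF1A siRNA, with coding values of 65.9 and 63.1 against 53.9 and 67.0. Its leader fell by 1.92 on the log2 scale (limma adjusted p = 0.000236), its coding change was -0.10, and its ratio went from 2.32 and 3.15 to 0.660 and 0.857. The ratio change of -1.82 did not pass (limma adjusted p = 0.0839). Marcks, a membrane-bound substrate of protein kinase C, had leader values of 171 and 258 against 62.0 and 59.1 (-1.78, limma adjusted p = 0.000512) and coding values of 68.8 and 80.4 against 75.3 and 41.5. Rabggtb, a subunit of the enzyme that attaches lipids to Rab proteins (chr3:153907289-153912966), had leader values of 55.2 and 113 against 14.2 and 27.1 and coding values of 22.2 and 33.7 against 40.7 and 43.1. It was the one gene whose leader lay below both controls while its coding region lay above both. Its ratio went from 2.48 and 3.36 to 0.35 and 0.63, a fall of 2.55 ± 0.80 on the log2 scale (SE, limma adjusted p = 0.016). That was the single fall of a ratio in the whole table (0.0524% of 1907 tested). The Rabggtb ratio call was lost without control 1 (-2.77) and without control 2 (-2.32). With 3 small nucleolar RNAs in its span, its leader reads may include reads of those genes, and this was not tested. Nck2, an adaptor protein, had leader values of 27.2 and 27.7 against 4.07 and 7.98, with coding values of 5.73 and 13 against 8.14 and 6.38.

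Coding footprints of the 279 genes split evenly. In 79 genes both eIF1A siRNA libraries exceeded both controls, and in 80 they were lower than both, beside 26.0% above and 39.7% below over all genes. A coding mean of at least 10 was reached by 169 genes, of which 126 reached it in both groups, 21 only through the eIF1A siRNA libraries and 22 only through the controls; 110 were not tested. By limma 18 rose and 16 fell, or 10.7% and 9.47% of the 169, beside 10.6% and 18.7% of all genes tested. Of these, 6 rises met the minimum only through the eIF1A siRNA libraries and 7 falls only through the controls. With factors from the coding reads alone the split became 34 and 16 in these genes, and 784 and 771 in place of 488 and 864 in the table. The counts without 1 library were 2 and 2 (control 1), 0 and 1 (control 2), 17 and 31 (eIF1A siRNA 1) and 35 and 15 (eIF1A siRNA 2).

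Further coding rises were those of Mrpl18 (1.83), Mrps21 (1.65) and Nudcd2 (1.63), which met the minimum only through the eIF1A siRNA libraries (control means of 8.97, 8.11 and 5.03). In addition, Ppp1r11, an inhibitor of protein phosphatase 1, rose by 1.51. All 4 coding calls were lost when either control was left out. Eif5a, the elongation factor that carries hypusine (chr11:69916712-69921958), had coding values of 81.0 and 96.8 against 238 and 180, a rise of 1.22 ± 0.29 (SE, limma adjusted p = 0.00646), lost when either control was left out (1.09 and 1.34). Its leader values were 250 and 377 against 237 and 399, with a change of 0.00. Eif5a thus gained coding reads at overlapping leader values, and its ratio went from 3.09 and 3.89 to 0.996 and 2.21. The coding falls included Ypel3 (-2.96), the dimethylarginine hydrolase Ddah2 (-2.48) and Pik3r2, a regulatory subunit of phosphoinositide 3-kinase (-2.03). Their coding calls too were lost when either control was left out. Ddah2 had coding values of 87.4 and 102 against 31.5 and 7.98, and leader values of 96.7 and 138 against 49.8 and 65.4 (limma adjusted p = 0.0598). Ftl1, the ferritin light chain, had coding values of 79.5 and 114 against 29.5 and 49.5 (-1.30, limma adjusted p = 0.0107) and leader values of 83.1 and 174 against 78.3 and 121, which overlap. The Ftl1 coding call was lost when either control was left out (-1.55 and -1.04). Reads of Ptma, Eif5a, Ftl1, H1f0, H3f3a and H3f3b can be shared with near-identical copies or family members, so their values are uncertain.

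**Figure D5:**
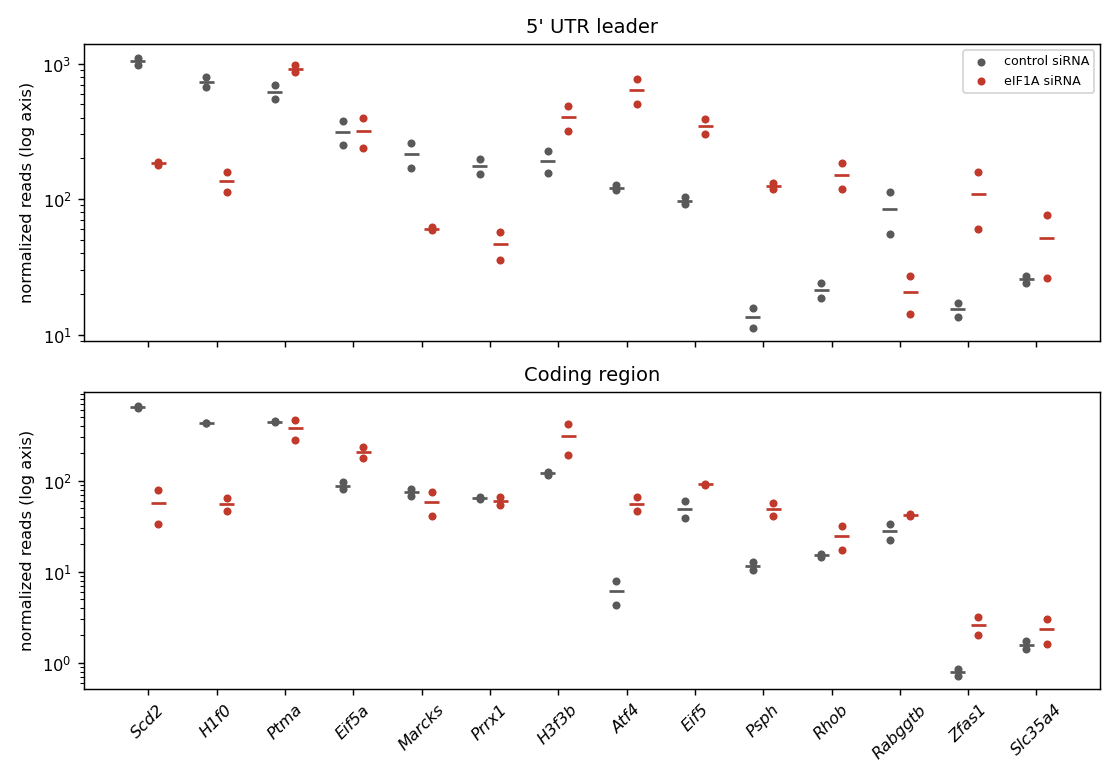
Normalized reads of the leader (top) and the coding region (bottom), on log axes, for 14 chosen genes; each point is 1 library, grey for control siRNA and red for eIF1A siRNA, and each bar is the mean of 2. Leader values of Scd2, H1f0, Marcks, Prrx1 and Rabggtb lie lower after eIF1A siRNA and those of Atf4, Eif5, Psph, Rhob and Zfas1 higher, while the Eif5a leader values (250 and 377 against 237 and 399) overlap.

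Leader and coding changes went together across the genes. Leader and coding reads both lay above both controls in 59 genes and both below in 38. The leader lay above with coding below in 9 genes, which were Alkbh5, Anapc11, Cbx1, Csk, Atg101, Egln2, Nudt3, Cnksr3 and Zfp251. These 9 were named after their values were seen. The correlation of the leader and the coding change was 0.72 across the 279 genes, which share libraries and scaling and are not independent replicates. By the calls, 14 genes rose in both regions and 9 fell in both, and none rose in one and fell in the other. None of these joint counts, nor the correlation, was computed over all genes, so they are not read as a trait of these 279. Taken singly, 67.6% of all leaders lay above both controls and 6.42% below, and of all coding regions 26.0% and 39.7%. The 67.6% counts leaders at 1 read in every library as above. Of the comparison leaders, 58.9% lay above and 11.04% below. Among the 279, the ratio exceeded both controls in 76 genes and was lower than both in 22, beside 56.7% and 3.49% of all genes. The shares of all genes include leaders at 1 read in every library. In the comparison leaders the shares were 62.3% and 1.74%. By limma 1 ratio was called higher (Rhob) and 1 lower (Rabggtb) of 169, beside 19.4% and 0.0524% of all ratios tested. At a limma unadjusted p under 0.05, 5 passed, beside 706 of all 1907. edgeR called 1 ratio of these genes and DESeq2 2, beside 342 and 337 in the whole table. With the second eIF1A siRNA library alone, the median ratio change was 0.86 in the 279 genes and 1.46 in all genes. With the first alone it was -0.07 and 0.53. Both ratio calls were lost when either control was left out.

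The leaders with the highest ratios held almost all the footprints of their genes. Zfp664, a zinc finger gene, had leader values of 75.2, 90.8, 101 and 152 (controls first) and coding values of 1.43, 2.59, 2.03 and 1.60. Its read ratio was 52.5 and 35.0 in the controls and 49.5 and 95 after eIF1A siRNA. Slc35a4, a member of a family of sugar nucleotide transporters whose upstream frame is known to encode a small protein, had leader values of 27.2, 24.2, 26.4 and 76.6 and coding values of 1.43, 1.73, 3.05 and 1.60. Its leader change of 0.79 did not pass (limma adjusted p = 0.183), and only the second eIF1A siRNA library lay well above the controls. Nbdy (2210013O21Rik in the table), the gene of a small protein of mRNA decapping bodies, had 1 coding read in each control and in each eIF1A siRNA library. Its leader values were 15.8 and 28.5 against 50.9 and 57.5 (1.31, limma adjusted p = 0.0242). Cep19, a centrosomal protein gene, also had 1 coding read in each control and leader values of 14.3 and 16.4 against 36.6 and 44.7 (1.34, limma adjusted p = 0.025). Mkks, which encodes a chaperonin-like protein, had leader values of 38.0, 42.4, 27.5 and 52.7, so its ratio of 8.83 and 16.3 in the controls became 27.0 and 33.0 through coding values of 4.30 and 2.59 against 1.02 and 1.60. The leader calls of Nbdy and Cep19 were lost when either control was left out, with DESeq2 and with factors from the coding reads alone. A ratio of at least 10 in both controls was found in 11 genes, at least 5 in 22 and at least 2 in 112.

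At the other end, 7 genes lost the excess in both eIF1A siRNA libraries. They were Prrx1, Rabggtb, Plekhh3, Atp1b2, Mrpl48, Marveld1 and Stard3nl. Plekhh3 had ratios of 1.27 and 1.17 in the controls and 0.652 and 0.75 after eIF1A siRNA, with leader values of 27.2 and 30.3 against 15.3 and 28.7. Marveld1, a membrane protein gene, had leader values of 14.3 and 19.0 against 4.07 and 4.79 (-1.69, limma adjusted p = 0.0272), a call lost when either control was left out, with DESeq2 and with factors from the coding reads alone. Mrpl48 and Stard3nl started at lower control ratios of 1.16 and 1.17, and Atp1b2 ended at 1 read in each region.

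The thresholds lay among closely spaced values. St6galnac4, Stac2 and Stard3nl entered with a lower control value of 10.0, while Mrps23 and Nxt1 at 9.51 and Fam3a at 9.31 stayed out. Ndufc2, Flcn and Zzz3 entered with a lower control ratio of 1.02, while Tmem14c, Tmem263 and Spred1 stood at 1.00.

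The chosen genes took 5.72% of the table and between 0 and 21.4% of the 15 gene lists looked at, which were chosen with earlier results known. Over all features tested, 44.0% of leaders and 10.6% of coding regions rose, beside which the counts of list members are to be read. Among mRNAs known for upstream frames, 3 of the 14 in the table (21.4%) were chosen (Atf4, Slc35a4 and Cdkn1b), and 9 of the 12 leaders of that list tested rose. Cdkn1b, the cyclin-dependent kinase inhibitor p27, had leader values of 42.3 and 46.7 against 34.6 and 60.7, which overlap. Of 7 mRNAs of initiation factors and others that respond to start codon stringency, Eif5 alone was chosen, and 7 of 7 leaders rose. Of 20 integrated stress response targets, 3 were chosen (Atf4, Psph and Vegfa); 11 of 13 leaders and 12 of 19 coding regions of that list rose. Vegfa, the endothelial growth factor, had leader values of 18.6 and 42.4 against 21.4 and 54.3, which overlap as well.

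Transcription factors gave 7 of the 35 in the table, among them Mef2d, Nfib, Smad7, Sox4, Usf1 and Elk3. Smad7, an inhibitor of TGF-beta signalling, had leader values of 13.6 and 12.1 against 23.4 and 57.5 and rose by 1.45 (limma adjusted p = 0.0174), a call lost when either control or the second eIF1A siRNA library (0.82) was left out. The leaders of Mef2d, Nfib, Sox4, Usf1 and Elk3 did not pass, with Sox4 at 54.5 and 102 against 47.8 and 70.2. Id1, an inhibitor of basic helix-loop-helix factors, was the 1 chosen of 12 immediate early genes. Its leader values were 12.9 and 27.7 against 44.7 and 49.5, a rise of 1.27 (limma adjusted p = 0.031) that was lost when either control was left out, with either set of TMM factors and with DESeq2.

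Small GTPases gave 3 of 29 (Rhob, Rab10 and Arf6), and ubiquitin pathway genes 3 of 19 (Ube2d2a, Ube2h and Rnf4). Arf6, a GTPase of membrane traffic, had leader values of 35.8 and 44.9 against 115 and 215 and rose by 1.95 (limma adjusted p = 0.00023), with a coding rise of 1.17 (limma adjusted p = 0.0259). Ube2d2a, a ubiquitin-conjugating enzyme, had leader values of 45.1 and 50.1 against 134 and 187 and rose by 1.71 (limma adjusted p = 0.00105). Rab10, Ube2h and Rnf4 did not pass, with leader changes of 0.34, 0.32 and 0.76. The histone H3.3 genes H3f3a and H3f3b were 2 of 28 chromatin genes. The H3f3a leader went from 64.5 and 83.0 to 212 and 289 (1.74, limma adjusted p = 0.00052), and the H3f3b leader from 157 and 226 to 318 and 490 (1.07, limma adjusted p = 0.0253). The H3f3b coding region rose by 1.25 (limma adjusted p = 0.0129). Of the calls in these families, the Arf6 leader was lost without control 1, the leaders of Ube2d2a and both histone genes and the coding regions of Arf6 and H3f3b when either control was left out. The H3f3b coding call was also lost without the first eIF1A siRNA library (0.69), and the H3f3b leader call without the second (0.76).

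Cyclins and their regulators gave 2 of 20, Cdkn1b and Cdkn2c. Cdkn2c, the inhibitor p18, had leader values of 83.8 and 120 against 72.2 and 78.2, coding values of 5.73 and 10.4 against 4.07 and 6.38, and ratios of 14.6 and 11.6 against 17.7 and 12.2, so that its ratio stood above 11 in all 4 libraries. Kinases and phosphatases gave 2 of 22 (Map2k1 and Ptp4a2), and RNA-binding proteins 1 of 36 (Mbnl2), none of whose leaders passed. Eif5a was the 1 of 24 genes of the translation machinery, and Rabggtb the 1 of 8 hosts of small nucleolar RNAs in that list. No gene of the extracellular matrix (23 in the table) or of vesicle traffic (23) was chosen.

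Of the genes with the most leader reads, Ptma, Tor1aip2, Tcf19 and Morf4l2 remain. Ptma, the gene of prothymosin alpha, had leader values of 545 and 698 against 861 and 977, without overlap, and a change of 0.57 that did not pass (limma adjusted p = 0.203). Tor1aip2, a partner of torsin at the nuclear envelope, had 165 and 218 against 218 and 303, and Tcf19 had 158 and 184 against 104 and 161. Morf4l2, a chromatin protein gene, fell from 234 and 260 to 95.6 and 156 (-1.01, limma adjusted p = 0.0435). The Morf4l2 call was lost when either control or the first eIF1A siRNA library (-0.65) was left out, and with edgeR.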

How the data were processed

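The deposited signal was the authors' normalized read number per gene, given for the 5' UTR and the coding sequence of 4878 genes in 4 ribosome profiling libraries, per the file headers. Per the submitters' processing notes, the tools included cutadapt, Bowtie, TopHat2, HTSeq and DESeq2 with build mm10, without versions. Divided by the value of 1 read, 100% of values came out whole (tolerance 0.001 reads). That value was 0.717 and 0.864 in the controls and 1.02 and 1.60 after eIF1A siRNA, and whole reads were recovered with it.

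Values were tested as log2(normalized reads + 1) with limma 3.58.1 (R 4.3.3) over all features with a mean of at least 10, for leader, coding region and their difference (the ratio), and printed for the chosen genes. On this scale the change of low genes is understated. On the recovered reads edgeR 4.0.16 (quasi-likelihood; 612 coding regions called higher and 905 lower, 947 and 48 leaders) and DESeq2 1.42.0 were alternatives. The procedure was tested on simulated data. No exact permutation test is given, since the smallest two-sided p that 2 against 2 libraries allow is 0.333.

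The genes, lists and tests were chosen with earlier results of these data known. Named were the 12 highest control leaders, the 8 highest and lowest ratios after eIF1A siRNA, the 8 largest called changes each way in leader and coding region, the genes nearest each threshold, members of 15 gene lists, and Eif1ax, Eif1a, Rps3, Rps10 and Atf4. Not all of these are reported here.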

Additional observations from a re-analysis of the deposited data

How the results depend on the processing

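The log2 changes of the named called genes kept their sign under every alternative run, and 7 of 38 leader calls, 1 of 24 coding calls (H1f0) and 0 of 2 ratio calls passed in all of them. Leaving out single libraries apart, 25, 17 and 1 passed. The SD between the medians of the 2 eIF1A siRNA libraries was 0.43 for the leader, 0.27 for the coding region and 0.65 for the ratio. The medians of the 279 genes moved by less than that, except when the eIF1A siRNA libraries chose the set (1.11 for the leader, 1.14 for the ratio). The SD comes from the same 2 library medians, so leaving out either library can hardly exceed it and says nothing of stability. The share of leaders above their coding regions was 78.1% in both eIF1A siRNA libraries, 95.7% in the second alone and 79.9% in the first alone. A share in 1 library cannot be below the share in both, so these values do not test the 78.1%. The median ratio change was -0.07 on the first eIF1A siRNA library alone and 0.86 on the second, so its sign was not the same in both.

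Counts moved more. Leader calls in the table (983) became 597 with a mean of at least 20 and 189 to 1396 with 1 library left out. Leader rises among the 279 genes (57) became 27 with factors from the coding reads alone, an alternative added after seeing the data, and 4 to 102 with 1 library left out. Leader falls (29) became 17 with a mean of at least 20, 11 with those factors, 15 with DESeq2, and 4 to 40. Coding calls in the table (1352) became 890 with DESeq2 and 11 to 1729. Coding rises (18) became 34 with those factors, 7 with DESeq2, and 0 to 35. Coding falls (16) became 10 with a mean of at least 20, and 1 to 31. Ratio calls in the table (371) became 629 with no filter on low values, 232 with a mean of at least 20, and 0 to 1175. Ratio rises among the 279 genes (1) became 2 with no filter, 0 with a mean of at least 20, 0 with 1 read taken off every value, 0 with edgeR, 0 with DESeq2, and 0 to 26. Ratio falls (1) became 2 with DESeq2, and 0 to 6. No filter and a mean of at least 20 change how many features are tested, and the cause of the other shifts was not tested. Where 0 ratios were called without control 2, 180 in the table had an unadjusted p under 0.05, 2 of them among the 279 genes.

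The titles number the replicates alike, but deviations of same-numbered libraries correlated at -0.0611 for leaders and 0.261 for coding regions over 2 pairs, so the numbers were not taken to pair libraries. With the replicate block, the calls among the 279 genes were 87 leader rises, 33 coding rises, 25 coding falls, 18 ratio rises and 4 ratio falls, and 851 ratios in the table.

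Depth limits the ratio. The median coding region of these genes held 6 reads in the second eIF1A siRNA library, and 110 of the 279 genes had too few coding reads to test. The smallest unit, 1 read, was worth 1.60 there against 0.717 in the deepest control.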
